A study of Mus musculus with 20 samples.

Results

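The mouse alpha- and beta-globin clusters were examined in lineage-negative (Lin-) bone marrow cells, the cells left after removal of those that carry surface markers of mature blood lineages. The members were 8 genes: Hba-x, Hba-a1, and Hba-a2 with the neighboring Nprl3 on chromosome 11, and Hbb-y, Hbb-bh1, Hbb-bs, and Hbb-bt on chromosome 7. Each cluster was extended by 60 kb on either side, which gave an alpha-globin span of 192 kb (chromosome 11, 32165628 to 32357298 of GRCm38, the assembly also called mm10) and a beta-globin span of 161 kb (chromosome 7, 103752524 to 103913216). Of 591292 peaks in 12 lists, 241 lay in these spans, 190 in the alpha-globin span and 51 in the beta-globin span.

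The lists came from ChIP-Seq of H3K27ac, H3K4me1, and H3K4me3, 1 library for each mark in each of 4 genotypes. The genotypes were Ep300fl/fl (called WT), Mx1-Cre Ep300fl/fl (Ep300Δ/Δ), Ep300fl/fl Tet2-/- (Tet2-/-), and Mx1-Cre Ep300fl/fl Tet2-/- (Ep300Δ/ΔTet2-/-), all on C57BL/6. The methods state that males and females were used in the study, without the sex behind each library. The comparison asked how removal of the acetyltransferase p300 alters these marks with and without TET2. All groups carried floxed Ep300 alleles and received poly(I:C), 3 doses of 10 μg/g at 6 to 8 weeks of age. Mx1-Cre is driven by an interferon-responsive promoter, so Cre is not limited to one blood lineage. The peaks were called against an H3 library of the same series, and the fold of a peak is its enrichment over that library. With 1 library per genotype and mark there was no spread between replicates and no test, and a fold was read only by its percentile within its own list. Peak lists do not give read totals, so depth is unknown. In a population of cells, a missing peak cannot be told apart from a smaller share of cells that carry the mark.

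Globin genes encode the chains of hemoglobin. In the mouse, Hba-x and the pair Hbb-y and Hbb-bh1 are transcribed in the embryo, whereas Hba-a1, Hba-a2, Hbb-bs, and Hbb-bt are the adult genes. They are turned on in erythroid precursors by distant enhancers: those of the alpha genes lie upstream, most of them inside introns of Nprl3, a broadly expressed gene of the GATOR1 complex, and those of the beta genes form the locus control region upstream of Hbb-y. GATA1, TAL1, NF-E2, and KLF1 bind there in erythroid cells. H3K4me1 marks enhancers whether active or poised, H3K27ac marks active enhancers and promoters, and H3K4me3 marks promoters.

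The proximal promoters are shown because the adult genes differ in how far their sequence can be told apart. The 120 bases before the RefSeq start (GRCm38.p6) are given 5′ to 3′ on the gene's strand, with capitals at the classical boxes of globin promoters on either strand: the CCAAT box, the CACCC box bound by KLF1, and the TATA-like box, searched as ATAAA.
Hba-a1: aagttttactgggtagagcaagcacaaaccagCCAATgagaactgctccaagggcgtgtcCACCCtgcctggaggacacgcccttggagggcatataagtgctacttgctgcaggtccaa
Hba-x: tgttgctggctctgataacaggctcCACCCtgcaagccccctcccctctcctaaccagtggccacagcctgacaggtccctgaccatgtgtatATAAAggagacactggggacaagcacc
Hbb-bs: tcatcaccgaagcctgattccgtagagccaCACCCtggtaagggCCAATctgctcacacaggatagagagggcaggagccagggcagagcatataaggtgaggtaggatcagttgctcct
Hbb-bt: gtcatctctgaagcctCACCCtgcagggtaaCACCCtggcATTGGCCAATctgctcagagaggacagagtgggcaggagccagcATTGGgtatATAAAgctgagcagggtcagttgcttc
Hbb-y: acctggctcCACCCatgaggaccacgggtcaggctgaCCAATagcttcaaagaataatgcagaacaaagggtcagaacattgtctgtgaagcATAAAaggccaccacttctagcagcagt
The Hba-a2 promoter was identical to that of Hba-a1 over 117 of 117 bases after a shift of 3 bases, and those of Hbb-bs and Hbb-bt were alike at 88 of 119 bases after a shift of 1 base. Among 32851 RefSeq promoters, windows of this length held CCAAT in 21.3%, CACCC in 31.7%, and ATAAA in 20.2%, and 1.01% held all 3. Hbb-bt and Hbb-y held all 3. The Hba-a1 and Hbb-bs windows hold atataa, a form that the search for ATAAA leaves unmarked, so no lack of a TATA-like box is shown there. Nprl3 held neither CCAAT nor CACCC. Sequences were found for 7 of the 8 members, and Hbb-bh1 was not among them.

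The windows shown next surround summits of enhancer peaks described later, and were chosen among those that hold a motif match. The H3K27ac summits in Ep300Δ/Δ cells near 31 kb, in Ep300Δ/ΔTet2-/- cells near 21 kb, in WT cells 6.73 kb upstream of Hba-x, and in Tet2-/- cells in the beta-globin control region held none and are not printed. Capitals mark 2 kinds of motif on either strand. The first is a GATA hexamer, in 4 forms: AGATAA and its variant that ends in G instead (AGATAG), and likewise TGATAA with its variant ending in G (TGATAG). The second is TGAGTCA, a motif of both NF-E2 and AP-1 factors that is called the NF-E2 motif here. All windows are printed on the plus strand of GRCm38.
H3K27ac, WT, intron of Nprl3, chr11:32245821-32246119: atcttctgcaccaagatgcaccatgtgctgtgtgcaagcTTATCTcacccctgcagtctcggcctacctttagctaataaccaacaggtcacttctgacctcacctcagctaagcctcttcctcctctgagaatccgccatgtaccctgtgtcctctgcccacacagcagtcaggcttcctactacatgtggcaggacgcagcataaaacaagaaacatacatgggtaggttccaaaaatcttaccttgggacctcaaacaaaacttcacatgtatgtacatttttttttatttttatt
H3K27ac, Tet2-/-, intron of Nprl3, chr11:32245140-32245438: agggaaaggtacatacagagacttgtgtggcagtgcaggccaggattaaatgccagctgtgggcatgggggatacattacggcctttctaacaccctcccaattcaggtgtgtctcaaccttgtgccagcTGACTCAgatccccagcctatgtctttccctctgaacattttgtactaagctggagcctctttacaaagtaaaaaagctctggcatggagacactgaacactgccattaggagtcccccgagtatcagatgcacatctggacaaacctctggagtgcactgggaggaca
H3K27ac, Ep300Δ/ΔTet2-/-, intron of Nprl3, chr11:32265005-32265303: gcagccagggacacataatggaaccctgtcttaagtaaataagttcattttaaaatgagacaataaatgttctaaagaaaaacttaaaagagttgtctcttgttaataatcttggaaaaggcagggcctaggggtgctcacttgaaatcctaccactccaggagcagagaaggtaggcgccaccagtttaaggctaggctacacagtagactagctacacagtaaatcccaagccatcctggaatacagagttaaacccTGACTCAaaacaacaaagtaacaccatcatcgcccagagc
H3K27ac, Ep300Δ/Δ, intergenic, upstream of the Nprl3 start, chr11:32268088-32268386: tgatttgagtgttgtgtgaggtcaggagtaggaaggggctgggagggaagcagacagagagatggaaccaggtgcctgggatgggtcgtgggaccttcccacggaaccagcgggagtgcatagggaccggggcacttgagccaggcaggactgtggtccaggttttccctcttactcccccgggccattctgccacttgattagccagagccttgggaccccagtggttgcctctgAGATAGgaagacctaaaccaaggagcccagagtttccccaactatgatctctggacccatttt
H3K27ac, WT, beta-globin control region, chr7:103870447-103870745: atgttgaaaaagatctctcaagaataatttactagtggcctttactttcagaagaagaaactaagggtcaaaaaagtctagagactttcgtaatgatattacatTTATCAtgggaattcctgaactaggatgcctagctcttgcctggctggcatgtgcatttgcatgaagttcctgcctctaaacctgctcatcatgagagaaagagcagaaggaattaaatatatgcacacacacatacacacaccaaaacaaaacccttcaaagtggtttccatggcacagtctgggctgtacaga
H3K4me1, Ep300Δ/ΔTet2-/-, beta-globin control region, chr7:103860953-103861251: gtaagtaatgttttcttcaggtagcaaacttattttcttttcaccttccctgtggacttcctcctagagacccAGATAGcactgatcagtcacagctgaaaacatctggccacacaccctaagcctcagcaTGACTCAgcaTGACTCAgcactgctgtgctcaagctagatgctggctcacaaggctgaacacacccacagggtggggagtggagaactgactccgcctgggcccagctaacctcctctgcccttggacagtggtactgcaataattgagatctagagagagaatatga
The last window, the only printed one with more than 1 kind of match, held 2 NF-E2 motifs in tandem, 18 and 8 bases before the summit, and a GATA hexamer 76 bases before it. A match describes the letters of a window and not the binding of a factor.

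Each mark covered more of the alpha-globin span than of the chromosomes in each genotype, by a narrow margin for H3K27ac in Tet2-/- cells. The beta-globin span exceeded the chromosomes in 2 of the 12 lists. H3K4me1 peaks covered 12.5% of the alpha-globin span in WT, 10.5% in Ep300Δ/Δ, 9.51% in Tet2-/-, and 9.46% in Ep300Δ/ΔTet2-/- cells, where they covered between 2.02% and 2.56% of the chromosomes. In the beta-globin span the same lists covered 1.93%, 2.43%, 1.2%, and 1.14%, and the percentage was above that of the chromosomes in Ep300Δ/Δ cells only. H3K4me3 covered 3.45% to 4.32% of the alpha-globin span and 0.235% to 0.902% of the beta-globin span, against 0.992% to 1.07% of the chromosomes.

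H3K27ac was the sparsest mark of the alpha-globin span. It covered 1.74% of the alpha-globin span in WT (chromosomes, 0.687%), 1.30% in Ep300Δ/Δ (0.421%), 0.590% in Tet2-/- (0.549%), and 0.821% in Ep300Δ/ΔTet2-/- cells (0.435%). The beta-globin span had 0.114%, none, 0.667%, and 0.277% covered in the same order. Both Tet2-/- and Ep300Δ/ΔTet2-/- lists held fewer alpha-globin peaks than the lists with TET2, 3 each against 8 in WT and 9 in Ep300Δ/Δ cells. The gap did not hold for stronger peaks: with lists of equal size the counts were 3 in WT, 4 in Ep300Δ/Δ, 3 in Tet2-/-, and 3 in Ep300Δ/ΔTet2-/- cells, and with a −log10 q of at least 5 they were 4, 3, 3, and 2.

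**Figure D1:**
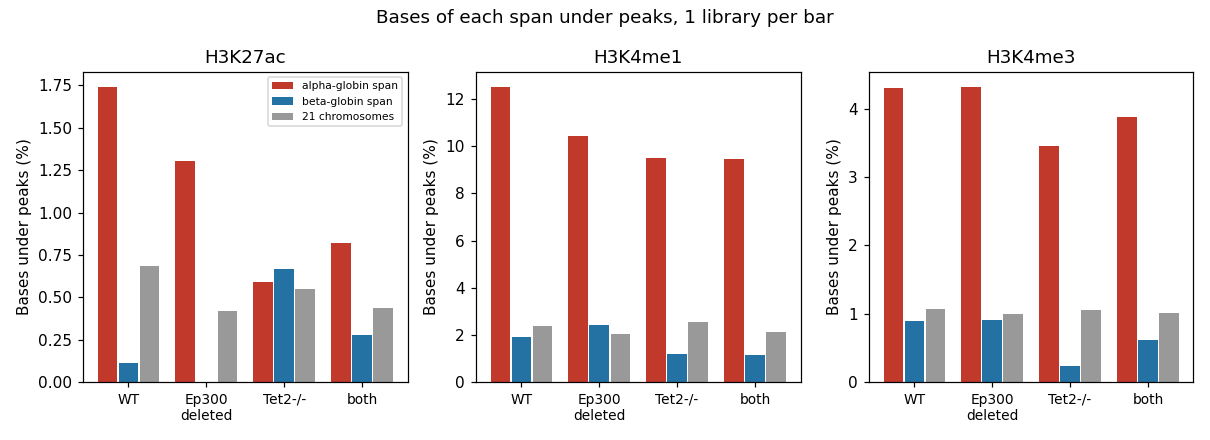
Bases under peaks (%) of the alpha-globin span, the beta-globin span, and the 21 chromosomes, by genotype, for each mark; "both" is Ep300Δ/ΔTet2-/-, and each bar is 1 library. The alpha-globin bars for H3K4me1 stand between 9.46% and 12.5%, above the chromosomes, and the H3K27ac bar of the beta-globin span in Ep300Δ/Δ cells is at 0.

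The promoter of Nprl3 (ENSMUSG00000020289, chromosome 11, 32225628 to 32267707, minus strand) carried the strongest H3K27ac peak of the alpha-globin span in each list. Its fold was 13.7 in WT (percentile 81.0 among all H3K27ac peaks of that list), 13.6 in Ep300Δ/Δ (85.8), 10.2 in Tet2-/- (71.4), and 12.2 in Ep300Δ/ΔTet2-/- cells (77.2). It was the one H3K27ac region of the 2 spans present in all 4 lists. H3K4me3 lay there as well, with folds of 36.0, 53.8, 51.7, and 25.1 in the same order, at percentiles from 68.5 to 95.8.

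Inside the gene, H3K4me1 covered 25.4% of the Nprl3 body in WT, 22.2% in Ep300Δ/Δ, 15.6% in Tet2-/-, and 18.1% in Ep300Δ/ΔTet2-/- cells. The median over 14164 coding genes of at least 10 kb was 2.14% to 2.46%, and Nprl3 stood at percentiles from 86.7 to 94.1. Over the 12 lists, the genes closest to Nprl3 in the percentage of their body covered were Nsmaf, Gnpat, Jade2, Otub2, and Phc2, with mean absolute differences from 1.38 to 1.64 percentage points. This likeness describes coverage only.

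**Figure D2:**
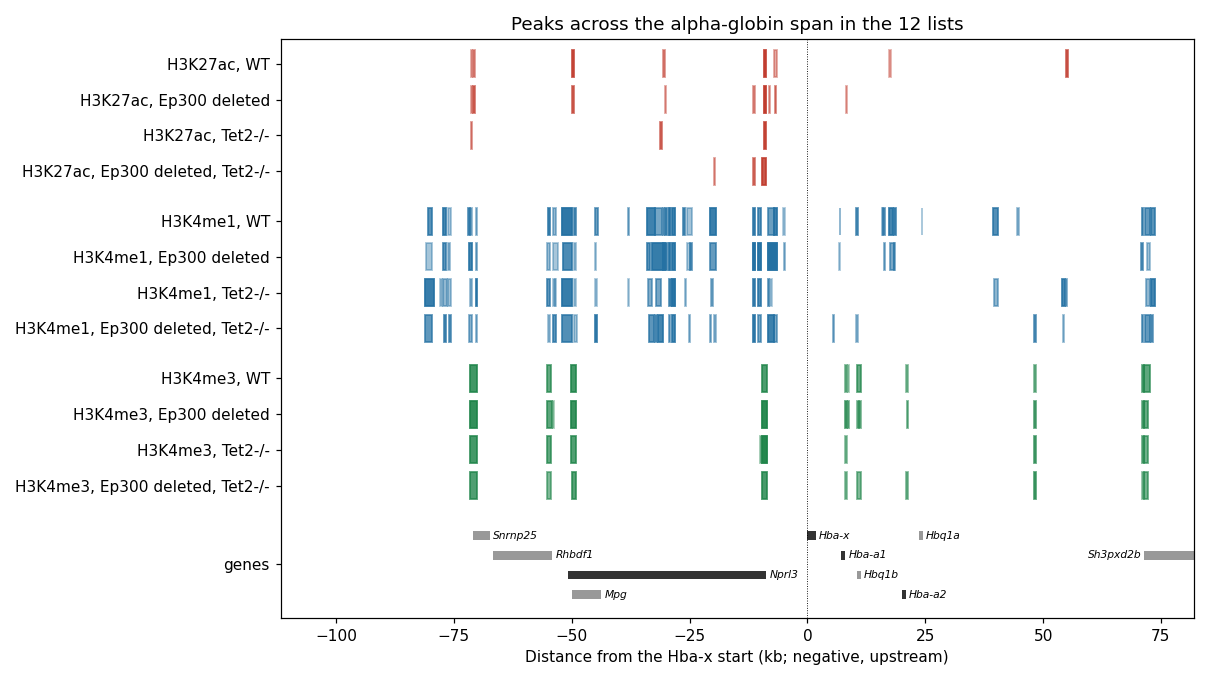
Peaks of the 12 lists across the alpha-globin span, by distance in kb from the Hba-x start. Each box is 1 peak, darker at a higher percentile of fold within its own list, with outlines that widen short peaks; members are drawn in black and neighboring genes in gray. H3K4me1 boxes crowd the Nprl3 body in each list, whereas H3K27ac boxes there are few and change position.

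The known enhancers of the mouse alpha genes lie about 31, 26, 21, 12, and 8 kb upstream of Hba-x, and summits within 1.5 kb of each distance were counted, leaving out peaks at the Nprl3 promoter, whose H3K27ac summits lay 8.91 kb to 8.95 kb upstream. Distances are from the GENCODE start of Hba-x at position 32276400. H3K4me1 had a summit at 5 of 5 distances in all 4 lists, where 30.2% to 41.3% of 3-kb windows laid across the span held one. H3K27ac had a summit at 2 of 5 in WT, 3 of 5 in Ep300Δ/Δ, 1 of 5 in Tet2-/-, and 2 of 5 in Ep300Δ/ΔTet2-/- cells, with 3.17% to 11.1% of windows holding one. Unlike the counts at the 5 distances, the shares of windows keep the Nprl3 promoter peaks. H3K4me3 had none at any of the 5 distances in any list.

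The H3K27ac peaks near 31 kb, in an intron of Nprl3, did not coincide. In WT cells the peak lay at 32245789 to 32246112 with a fold of 4.54 (percentile 22.5) and a −log10 q of 4.82, and the window printed for WT above includes an AGATAA match 110 bases before its summit. In Ep300Δ/Δ cells it lay at 32246280 to 32246444 with a fold of 3.48 (12.7) and a −log10 q of 1.34, just inside the stated q of 0.05. In Tet2-/- cells it lay at 32245130 to 32245516 with a fold of 5.70 (41.0) and a −log10 q of 7.65. These are 3 neighboring positions with no base in common, and Ep300Δ/ΔTet2-/- cells had no H3K27ac peak there. Coordinates of H3K4me1 regions here and later are merged over the lists, and a single list may cover less. All 4 lists had H3K4me1 peaks within 32242254 to 32245660, which in Tet2-/- cells were 32242663 to 32243366 and 32244342 to 32245391, whereas the adjacent regions at 32245695 to 32246108 and 32246217 to 32246700 carried H3K4me1 in WT and Ep300Δ/Δ cells and not in either list without TET2.

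No list held H3K27ac near 26 kb. Near 21 kb, only Ep300Δ/ΔTet2-/- cells had a peak, at 32256569 to 32256854, 19.7 kb upstream, with a fold of 4.25 (percentile 15.9) and a −log10 q of 4.19. Near 12 kb, peaks overlapped in the lists of the genotypes without p300: Ep300Δ/Δ at 32264868 to 32265203, fold 3.79 (17.6) and −log10 q 1.51, and Ep300Δ/ΔTet2-/- at 32264810 to 32265300, fold 5.77 (37.7) and −log10 q 7.30. H3K4me1 was present at this site (32264743 to 32265299) in all 4 lists, with folds of 5.55, 10.4, 6.09, and 6.17 in WT, Ep300Δ/Δ, Tet2-/-, and Ep300Δ/ΔTet2-/- cells, at percentiles of 70.6, 98.8, 67.7, and 76.4.

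Between the Nprl3 start and Hba-x, H3K27ac was listed only in cells with TET2. WT cells had a peak 6.73 kb upstream of Hba-x (32269269 to 32269939) with a fold of 3.81 (percentile 10.9) and a −log10 q of 2.73. Ep300Δ/Δ cells had an overlapping peak 6.87 kb upstream with a fold of 4.73 (34.4) and a −log10 q of 4.004, and another 8.16 kb upstream with a fold of 3.73 (16.3) and a −log10 q of 1.93. With a −log10 q of at least 5 none of these H3K27ac peaks is left, and with lists of equal size the WT peak is not listed. The difference thus rests on weak peaks. All 4 lists had H3K4me1 within 32267996 to 32269945, with highest folds of 6.72 in WT, 12.5 in Ep300Δ/Δ, 5.002 in Tet2-/-, and 6.85 in Ep300Δ/ΔTet2-/- cells and percentiles of 84.4, 99.7, 47.7, and 83.3. In Tet2-/- cells these peaks ended at 32268975, before the site of the overlapping H3K27ac peaks, where the other 3 lists had H3K4me1.

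Of the neighbors of the alpha genes, Mpg, which encodes a DNA glycosylase, had promoter H3K27ac in WT, with a fold of 9.98 (percentile 69.9), and in Ep300Δ/Δ cells, with a fold of 5.77 (48.2). It had none in either list without TET2, although its H3K4me3 peak was present in all 4. Snrnp25, a gene of the minor spliceosome, had an H3K27ac peak 97 to 185 bp before its start in WT, Ep300Δ/Δ, and Tet2-/- cells and another just past the start in WT and Ep300Δ/Δ cells, with none in Ep300Δ/ΔTet2-/- cells. Rhbdf1, which encodes an inactive rhomboid protein, had H3K4me3 near its start in all 4 lists and no H3K27ac. WT cells also had an intergenic H3K27ac peak far downstream of the Hba-x start (32331269 to 32331688), with a fold of 7.07 (52.9), that no other list held.

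**Figure D3:**
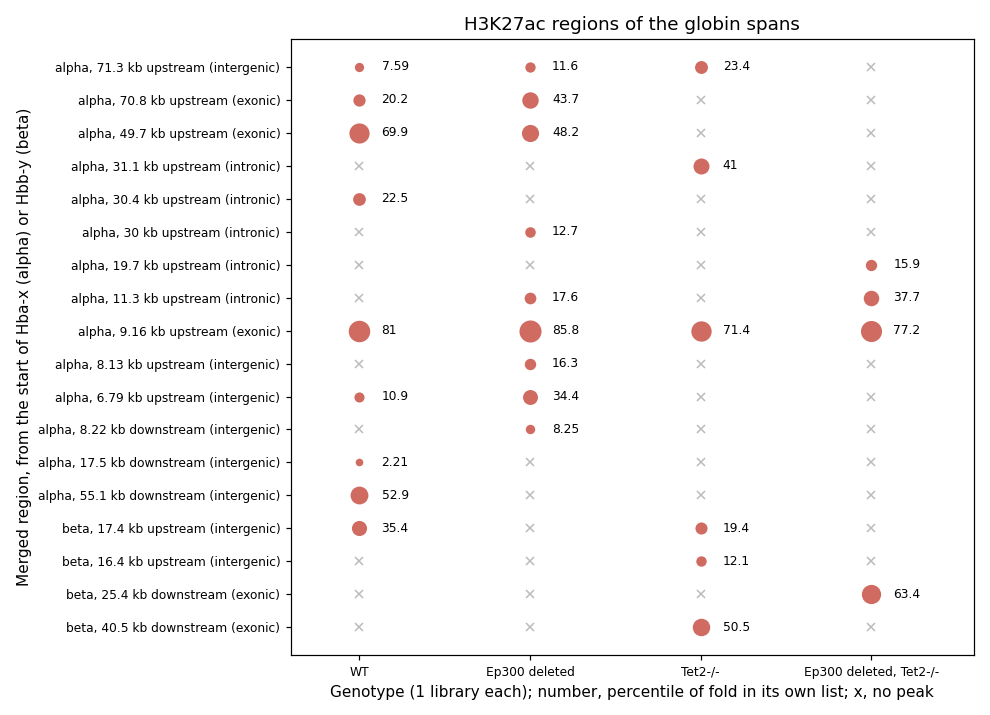
The 18 H3K27ac regions of both spans, merged over the 4 lists, in rows by distance from the Hba-x or Hbb-y start, with genotypes in columns. Each circle is a peak with the percentile of its fold in its own list, and a cross is no peak; only the Nprl3 promoter has a circle in each column, with percentiles of 81.0, 85.8, 71.4, and 77.2.

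Merged over the 4 lists, H3K27ac formed 14 regions in the alpha-globin span, of which 8 were in 1 list, 4 in 2, 1 in 3, and 1 in all 4. Genome-wide, 37.7% of H3K27ac regions were in 1 list only and 35.5% in all 4. Of the 23 H3K27ac peaks in the alpha-globin span, 13 lay on H3K4me1 of their own genotype, as did 60.3% to 69.4% of all H3K27ac peaks. H3K4me1 formed 41 regions, 18 of them in all 4 lists and 9 in 1 list (genome, 34.4% and 31.8%). H3K4me3 formed 13, with 8 in all 4 and 2 in 1 list (genome, 64.1% and 17.6%).

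From WT to Ep300Δ/Δ cells, 3 of 8 H3K27ac regions of the alpha-globin span were lost, against 39.7% of the regions of the genome. The exact Clopper-Pearson 95% interval for 3 of 8 was 8.52% to 75.5% and, like all intervals here, covers counting error only. A further 4 of the 9 regions in Ep300Δ/Δ cells were gained (44.4%; interval, 13.7% to 78.8%), against 12.8% in the genome. The 3 lost regions were the WT peak near 31 kb and the peaks at 32293675 to 32294111 and 32331269 to 32331688, downstream of Hba-x. The 4 gained regions lay near 31, 12, and 8 kb and next to Hba-a1, with −log10 q values of 1.34, 1.51, 1.93, and 0.591, so that the last one does not reach the stated q of 0.05. Counting a peak within 500 bp as present left 2 of 8 lost and 2 of 9 gained, and with peaks of −log10 q of at least 5 alone, 1 of 4 was lost and 0 of 3 gained. With lists of equal size, 1 of 3 was lost and 2 of 4 gained.

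From Tet2-/- to Ep300Δ/ΔTet2-/- cells, 2 of 3 H3K27ac regions were lost and 2 of 3 gained, against 37.8% and 15% in the genome. The lost regions were the peak near 31 kb and that before Snrnp25, and the gained ones were those near 21 and 12 kb. From WT to Tet2-/- cells, 6 of 8 were lost (interval, 34.9% to 96.8%) and 1 of 3 gained (genome, 35.6% and 20.3%). From Ep300Δ/Δ to Ep300Δ/ΔTet2-/- cells, 7 of 9 were lost (40.0% to 97.2%) and 1 of 3 gained (genome, 31.2% and 18.5%). With lists of equal size, 2 of 3 were lost and 2 of 3 gained from WT to Tet2-/- cells, and 3 of 4 lost and 2 of 3 gained from Ep300Δ/Δ to Ep300Δ/ΔTet2-/- cells, so that lost and gained regions then differed by at most 1. From WT to Tet2-/- cells, 3 of 4 were lost and 2 of 3 gained with a −log10 q of at least 5, and 4 of 8 were lost and 0 of 3 gained with a peak within 500 bp counted as present. From Ep300Δ/Δ to Ep300Δ/ΔTet2-/- cells these counts were 2 of 3 and 1 of 2, and 7 of 9 and 1 of 3. These comparisons share lists and are not independent of one another.

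H3K4me1 of the alpha-globin span lost 8 of 35 regions and gained 0 of 27 from WT to Ep300Δ/Δ cells, where the genome lost 36.7% and gained 24.1%. From Tet2-/- to Ep300Δ/ΔTet2-/- cells it lost 5 of 26 and gained 7 of 28 (genome, 31.1% and 23.4%). From WT to Tet2-/- cells it lost 16 of 38 and gained 4 of 26 (28.6% and 26.8%), and from Ep300Δ/Δ to Ep300Δ/ΔTet2-/- cells it lost 8 of 28 and gained 5 of 25 (26.2% and 29.5%). Between Hba-a1 and Hba-a2, H3K4me1 regions at 32292513 to 32292951, 32293688 to 32294675, and 32294682 to 32295108 were present in WT and Ep300Δ/Δ cells and in neither list without TET2. A WT H3K27ac peak lay over the second of them, at 32293675 to 32294111, with a −log10 q of 1.26 that does not reach the stated q.

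The embryonic genes Hba-x, Hbb-y, and Hbb-bh1 had no peak of any mark within 1 kb in any of the 12 lists. Of the 75-base windows of their gene bodies, 0% recurred in the genome or had a copy with at most 2 mismatches in their own span. Their flanks were not measured separately.

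The adult genes have near copies of one another. The methods describe 75-bp reads and a filter on mapping quality, which drops reads that map equally well to several places. Of the 75-base windows of Hba-a1 (ENSMUSG00000069919, chromosome 11, 32283511 to 32284465), 91.5% occurred elsewhere in the genome and 100% had a copy with at most 2 mismatches. For Hba-a2 (ENSMUSG00000069917, 32296489 to 32297298) these values were 89.8% and 100%. For Hbb-bs (ENSMUSG00000052305, chromosome 7, 103826534 to 103828096) they were 63.3% and 73.6%, and for Hbb-bt (ENSMUSG00000073940, 103812524 to 103813996) 67.3% and 78.3%. Counted from the gene start, the longest stretch without any distinct window ran from base -118 to 1159 at Hba-a1, from -279 to 998 at Hba-a2, from 416 to 1362 at Hbb-bs, and from 325 to 1271 at Hbb-bt. A further stretch of 260 bp lay upstream of each alpha gene, from -538 to -279 at Hba-a1 and from -681 to -422 at Hba-a2. Absence of a peak in these stretches is therefore not evidence that a mark was absent.

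**Figure D4:**
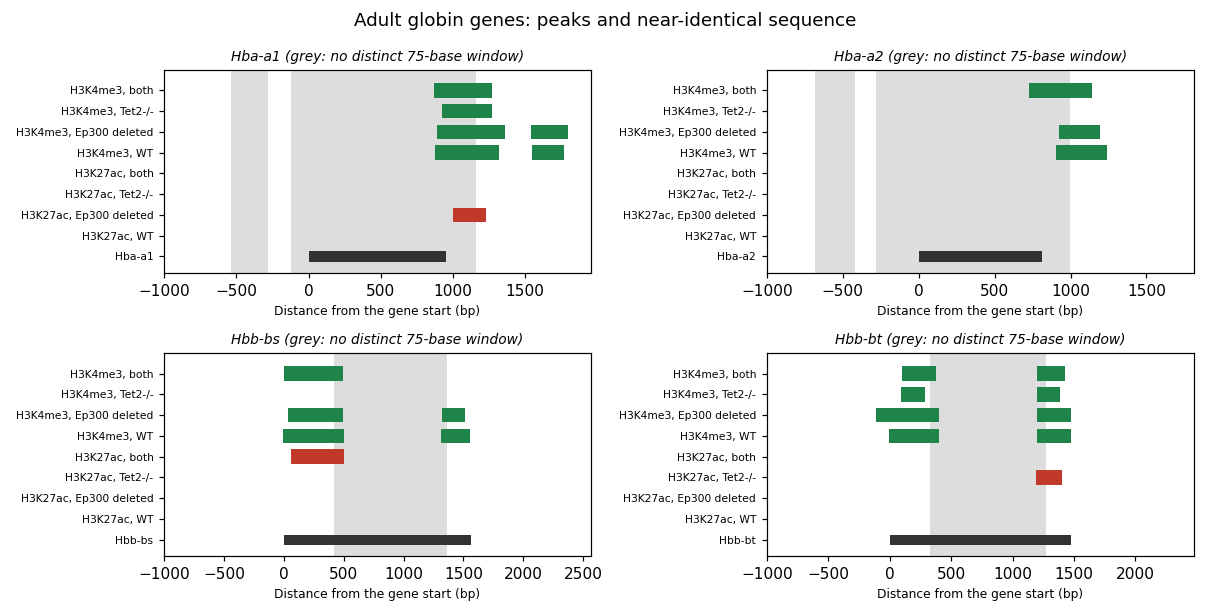
H3K27ac and H3K4me3 peaks of each genotype within 1 kb of the 4 adult genes, by distance in bp from the GENCODE start; "both" is Ep300Δ/ΔTet2-/-. Gray bands have no distinct 75-base window, such as bases 416 to 1362 of Hbb-bs, and most peaks lie across or beside their edges.

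H3K4me3 was present at the edges of the adult genes. At the 3′ end of Hba-a1 a peak was listed in all 4 genotypes, with folds of 7.07 in WT, 16.2 in Ep300Δ/Δ, 5.42 in Tet2-/-, and 4.98 in Ep300Δ/ΔTet2-/- cells, at percentiles of 28.3, 51.7, 20.3, and 20.7. Of the windows under these peaks, 68.2% to 87.8% recurred or had a near copy. A peak just past Hba-a2 had folds of 5.76 in WT (percentile 20.4), 7.69 in Ep300Δ/Δ (33.2), and 5.74 in Ep300Δ/ΔTet2-/- cells (26.1) and was not listed in Tet2-/- cells. Hbq1b, a theta-globin gene between them, had H3K4me3 in the same 3 lists, with folds up to 17.2 in WT (percentile 51.2), 6.73 in Ep300Δ/Δ (29.1), and 7.09 in Ep300Δ/ΔTet2-/- cells (33.5). Peaks at all 3 genes were thus listed in WT, Ep300Δ/Δ, and Ep300Δ/ΔTet2-/- cells, and in Tet2-/- cells at Hba-a1 only. Of the windows under that Tet2-/- peak, 86.2% recurred or had a near copy, as did 35.8% to 79.5% under the Hba-a2 peaks. The missing Tet2-/- peak at Hba-a2 is therefore not evidence of a difference between these 2 near copies.

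In the beta-globin cluster, Hbb-bt had H3K4me3 at both ends in all 4 lists as deposited. With lists of equal size, the Hbb-bt peaks of Tet2-/- and Ep300Δ/ΔTet2-/- cells were no longer listed, and with a −log10 q of at least 5 the peaks at its start were not listed in either. The peak at its start had folds of 17.4 in WT (percentile 51.4), 10.2 in Ep300Δ/Δ (41.1), 4.76 in Tet2-/- (15.5), and 2.58 in Ep300Δ/ΔTet2-/- cells (1.21), and −log10 q values of 50.03, 21.9, 4.41, and 1.59. Hbb-bt therefore ranked in the middle of the H3K4me3 lists with TET2 and low in both lists without it. Of the windows under the peak at its start, 46.1% in WT and 34.6% in Ep300Δ/Δ cells recurred or had a near copy. In Tet2-/- and Ep300Δ/ΔTet2-/- cells these values were 62.0% and 62.6%. Hbb-bs had H3K4me3 at its start with a fold of 12.1 in WT (43.4), 19.4 in Ep300Δ/Δ (55.5), and 11.8 in Ep300Δ/ΔTet2-/- cells (47.3), and none in Tet2-/- cells. A peak at the 3′ end of Hbb-bs was listed in WT and Ep300Δ/Δ cells only.

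H3K4me1 lay beside 2 of the 4 adult genes. A region past the 3′ end of Hbb-bt (103811595 to 103811962), carried it in all 4 lists, with folds of 3.62 in WT (percentile 24.5), 3.48 in Ep300Δ/Δ (20.1), 6.14 in Tet2-/- (68.9), and 5.51 in Ep300Δ/ΔTet2-/- cells (66.4). The Hbb-bt start itself carried H3K4me1 in each list but that of Ep300Δ/Δ cells. Upstream of Hba-a1, 117 bp from its start, H3K4me1 was listed in WT, with a fold of 3.76 (percentile 28.8), and in Ep300Δ/Δ cells, with a fold of 2.66 (4.28). Hba-a2 and Hbb-bs had none within 1 kb in any list.

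H3K27ac at adult genes was listed in single genotypes. The Hbb-bs promoter had a peak in Ep300Δ/ΔTet2-/- cells alone (103827594 to 103828038; fold 8.83, percentile 63.4, −log10 q 12.6). The 3′ end of Hbb-bt had one in Tet2-/- cells alone (103812595 to 103812803; fold 6.62, percentile 50.5, −log10 q 8.05). Of the windows under these 2 peaks, 43.7% at Hbb-bs and 58.5% at Hbb-bt recurred or had a near copy. Ep300Δ/Δ cells had the weak peak past Hba-a1 (32284514 to 32284741; fold 3.24, percentile 8.25), in which 100% of windows recurred or had a near copy. No list held H3K27ac within 1 kb of Hba-a2.

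**Figure D5:**
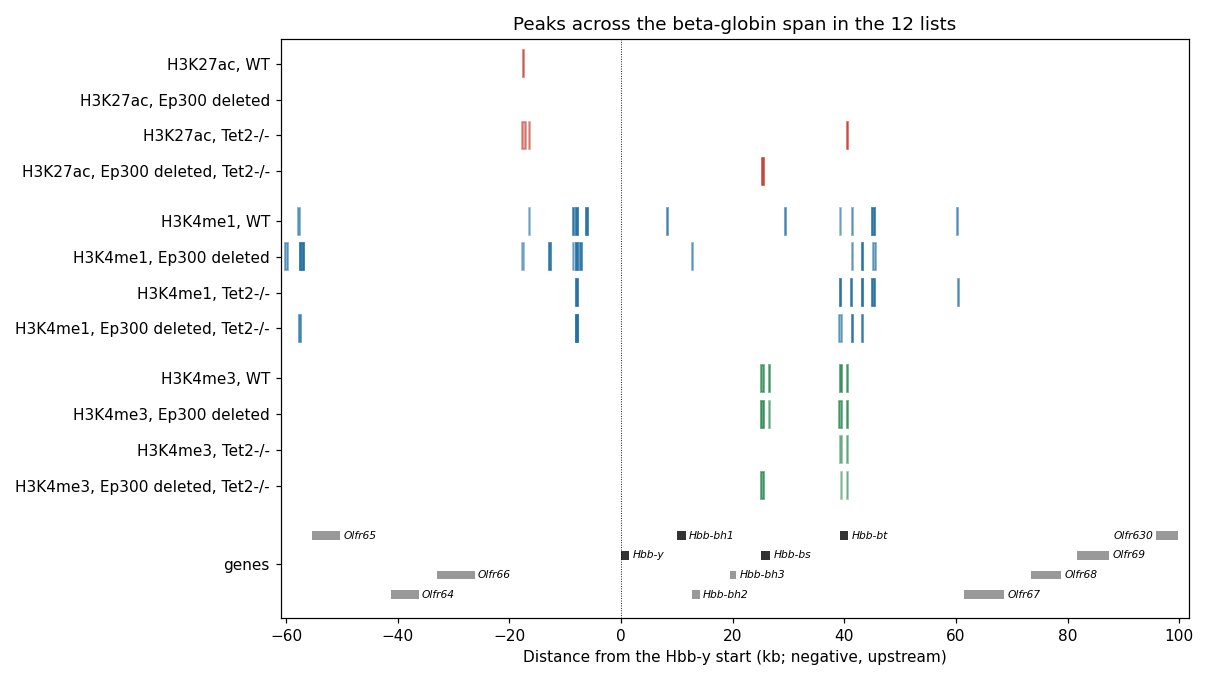
Peaks of the 12 lists across the beta-globin span, by distance in kb from the Hbb-y start, drawn as for the alpha-globin span. One H3K4me1 region 7.71 to 8.14 kb upstream appears in all 4 genotypes, and the Ep300Δ/Δ track for H3K27ac is empty.

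The locus control region was taken as the 30 kb upstream of Hbb-y. Its one peak region common to the 4 genotypes was an H3K4me1 region at 103860928 to 103861353, 7.71 to 8.14 kb upstream, the region of the tandem NF-E2 motifs printed above. Its fold was 6.84 in WT (percentile 85.6), 6.75 in Ep300Δ/Δ (86.2), 7.49 in Tet2-/- (82.9), and 10.8 in Ep300Δ/ΔTet2-/- cells (98.2), so it ranked high in each H3K4me1 list. The neighboring region at 103861562 to 103861854 was present in WT and Ep300Δ/Δ cells only. WT cells alone had regions at 6.06 kb and 16.4 kb, and Ep300Δ/Δ cells alone at 7.13, 12.7, and 17.5 kb. No H3K27ac peak lay over the constant H3K4me1 region in any list.

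H3K27ac of the control region lay farther upstream. WT cells had a peak 17.4 kb upstream (103870553 to 103870735) with a fold of 5.44 (percentile 35.4) and a −log10 q of 5.38, and Tet2-/- cells an overlapping one (103870275 to 103870923) with a fold of 4.25 (19.4) and a −log10 q of 3.11, and another 16.4 kb upstream with a fold of 3.75 (12.1). Neither genotype without p300 had H3K27ac in the control region. With lists of equal size, no H3K27ac peak of the control region was left in any genotype, so that this difference rests on weak peaks. None of the 5 H3K27ac peaks of the beta-globin span lay on H3K4me1 of its own genotype.

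Merged over the 4 lists, the beta-globin span held 4 H3K27ac regions, 3 of them in 1 list and 1 in 2. From WT to Ep300Δ/Δ cells, 1 of 1 was lost, and from Tet2-/- to Ep300Δ/ΔTet2-/- cells 3 of 3 (interval, 29.2% to 100%) were lost and 1 of 1 gained, beside the percentages of the genome given above. From WT to Tet2-/- cells, 0 of 1 was lost and 2 of 3 gained, and from Ep300Δ/Δ to Ep300Δ/ΔTet2-/- cells 1 of 1 was gained. With a −log10 q of at least 5, 1 of 1 was lost and 1 of 1 gained from WT to Tet2-/- cells. With lists of equal size, WT had no region to lose and 1 of 1 was gained. H3K4me1 formed 18 regions there, of which 2 were in all 4 lists and 11 in 1 list (genome, 34.4% and 31.8%). From WT to Ep300Δ/Δ cells, H3K4me1 lost 7 of 11 and gained 7 of 11 (genome, 36.7% and 24.1%). From Tet2-/- to Ep300Δ/ΔTet2-/- cells it lost 2 of 6 and gained 1 of 5 (31.1% and 23.4%). From WT to Tet2-/- cells it lost 7 of 11 and gained 2 of 6 (28.6% and 26.8%), and from Ep300Δ/Δ to Ep300Δ/ΔTet2-/- cells it lost 7 of 11 and gained 1 of 5 (26.2% and 29.5%). The 7 olfactory receptor genes that flank the cluster had no H3K27ac or H3K4me3 within 1 kb, and 1 of them, Olfr67, had H3K4me1.

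Within 150 bp of the H3K27ac summits, a GATA hexamer was found at 4 of 23 summits of the alpha-globin span and 3 of 5 of the beta-globin span, where 23.5% to 26.8% of all summits of the 4 lists held one. TGAGTCA was found at 3 of 23 and 1 of 5 (all summits, 4.29% to 4.83%), and the KLF motif CCACACCC, which contains CACCC, at 2 of 23 and 0 of 5 (3.07% to 3.39%). The CTCF core motif was found at none of the 28 (1.88% to 2.08%). Several of these summits are the same site in different lists, such as the Nprl3 promoter, which held no match in any list.

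Among 15 regulators of globin genes, which include Gata1, Tal1, Klf1, Nfe2, Bcl11a, and Zbtb7a, all had H3K4me3 and H3K4me1 within 3 kb of a start in all 4 lists. H3K27ac was listed at 15 of 15 in WT and in Tet2-/- cells, at 14 in Ep300Δ/Δ cells, where Gata1 lacked it, and at 13 in Ep300Δ/ΔTet2-/- cells, where Gata2 and Klf1 lacked it. Across all coding genes, 43.1% to 47.3% had promoter H3K27ac, 61.3% to 62.7% H3K4me1, and 61.9% to 63.1% H3K4me3. Of other erythroid genes, Epor, the erythropoietin receptor, had H3K27ac in all 4 lists. Alas2, the erythroid enzyme of heme synthesis, had it in WT cells only, and in no list within 1 kb of a start, and Slc4a1, the band 3 anion exchanger, in all lists but that of Tet2-/- cells.

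The cells matched their label in part. All 6 progenitor markers (Kit, Cd34, Flt3, Myb, Gata2, Runx1) had H3K27ac or H3K4me3 within 3 kb in each list. Of the markers of mature lineages reported here, Itgam, a myeloid integrin, had one of these marks in all 4 lists, whereas Cd3e, Ms4a1, and Ly6g had neither in any list. Of 3 genes of other tissues, Alb and Myod1 had neither mark, and Neurod1 had H3K4me3 without H3K27ac. The labels give the purity of the depletion as a minimum. The part of remaining mature cells in the globin peaks was not tested.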

How the data were processed

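ChIP-Seq of crosslinked Lin- bone marrow cells, with Drosophila chromatin added for scaling, gave 12 peak lists. The other 8 of 20 samples, for H3 and H3K27me3, have no list of their own here and were not analysed. The submitters' processing notes and the methods name cutadapt 1.15 for trimming, BWA 0.7.13 for alignment (mm10), Picard for duplicates, and MACS2 2.1.1.20160309 for peaks, which the authors called on pseudo-replicates of each library with H3 as background. The methods describe paired-end reads and the labels single-end reads. No source used here states that the lists were scaled by the Drosophila reads. For each peak, the deposited columns hold the fold (a ratio to H3), −log10 p-values and −log10 q-values, an integer score, which was not used, and the summit position. Although the methods state a q under 0.05, each H3K27ac list held peaks above it, 7.17% of them in Ep300Δ/Δ cells and 0.780% to 0.900% in the other lists.

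Genotypes and marks were taken from the labels. The members, gene lists, and motifs were chosen with earlier results of these data known. Peaks of different lists were merged where they shared at least 1 bp. A region counted as lost or gained if the other list had no peak on it. Named genes were the members, other genes of the spans with a peak within 1 kb, the listed regulators and markers (peak within 3 kb of a start), and the 5 genes most like Nprl3. Some genes of the erythroid and marker lists are not reported here. Genes came from GENCODE mouse release 21, and sequences from RefSeq and GRCm38.p6. A window of 75 bases was counted as repeated when it occurred again on either strand of the 21 chromosomes, and as near when another window of its own span had at most 2 mismatches. Merging was checked against bedtools 2.31.1 and window counting against an exact search on simulated data. With 1 library per group no test was made. Python 3.11.15, numpy 2.4.6, pandas 2.3.3, scipy 1.17.1, numba 0.67.0, and matplotlib 3.10.9 were used.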

Additional observations from a re-analysis of the deposited data

Results flagged for a closer look

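The number of H3K4me1 peaks in the alpha-globin span moved in opposite directions when Ep300 was deleted on the 2 backgrounds. It was 38 in WT and 29 in Ep300Δ/Δ cells, a difference of -9, and 28 in Tet2-/- and 29 in Ep300Δ/ΔTet2-/- cells, a difference of 1. The whole H3K4me1 lists held 107392 and 90738 peaks, and 98069 and 93465. With lists of equal size the numbers in the span were 34 and 29, and 24 and 29. With a −log10 q of at least 5 the numbers were 25 and 13, and 19 and 19, and with at least 10 they were 10 and 7, and 9 and 3, and at the latter threshold both moved the same way. With 1 library each, the difference between the backgrounds was not tested. The covered length moved the same way on both, by -3.98 kb and by -0.091 kb.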

How the results depend on the processing

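No paired analysis was possible because each genotype and mark has 1 library, and no library could be left out. Depth is unknown. For the H3K27ac regions lost, presence only where a peak covers 50% of the merged region, a distance of 500 bp, spans of 30 kb or 100 kb, and the stated q, an alternative chosen after seeing the data, kept all 4 counts within 1.5 times of those reported. Across the alternatives, 112 peak numbers stayed within 1.5 times and 32 did not, and 97 counts of lost or gained regions did and 31 did not. Spans of 30 kb or 100 kb and the stated q moved no peak number. A −log10 q of at least 10 moved 15 and kept 9, at least 5 moved 11 and kept 13, and lists of equal size moved 6 and kept 18. The lost or gained regions in this tally are those of H3K27ac, and those of H3K4me1 were not varied. A promoter window of 1 kb instead of 3 kb kept 71 of the numbers of marked promoters within 1.5 times and moved 9, those of markers of mature lineages and of other tissues. The smaller counts under stricter q and equal lists come from fewer peaks entering.

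With a −log10 q of at least 5, regions lost from WT to Ep300Δ/Δ cells numbered 1 of 4 in the alpha-globin span, and 1 of 1 was lost from Tet2-/- to Ep300Δ/ΔTet2-/- cells in the beta-globin span. Peaks then numbered, for H3K27ac in the alpha-globin span, 4 in WT and 3 in Ep300Δ/Δ, and in the beta-globin span 1 in Tet2-/- cells. For H3K4me1 they numbered 25 in WT, 13 in Ep300Δ/Δ, and 19 in Ep300Δ/ΔTet2-/- cells in the alpha-globin span and 4, 3, and 2 in the beta-globin span, and for H3K4me3 in the beta-globin span 1 in Tet2-/- and 1 in Ep300Δ/ΔTet2-/- cells. With at least 10, lost regions numbered 1 of 2 and 0 of 1 in the alpha-globin span and 0 and 0 in the beta-globin span. H3K27ac peaks then numbered 2 in WT and 1 in each other genotype in the alpha-globin span and 0 in WT and 0 in Tet2-/- cells in the beta-globin span. H3K4me1 peaks numbered 10, 7, 9, and 3 in the alpha-globin span and 0, 1, and 1 in WT, Ep300Δ/Δ, and Ep300Δ/ΔTet2-/- cells in the beta-globin span, and H3K4me3 peaks there 0 in Tet2-/- and 1 in Ep300Δ/ΔTet2-/- cells. Peak numbers left out of this paragraph stayed within 1.5 times. At both thresholds Tet2-/- cells kept more H3K4me1 peaks of the beta-globin span than any other genotype. Among them were those at 103809801 to 103810069 and 103861005 to 103861353, each with a −log10 q of 11.1. With lists of equal size, 1 of 3 alpha-globin regions was lost from WT to Ep300Δ/Δ cells, and in the beta-globin span 0 there and 1 of 1 from Tet2-/- to Ep300Δ/ΔTet2-/- cells. H3K27ac peaks then numbered 3 in WT and 4 in Ep300Δ/Δ in the alpha-globin span and 0 in WT and 1 in Tet2-/- cells in the beta-globin span, and H3K4me3 peaks there 0 in Tet2-/- and 1 in Ep300Δ/ΔTet2-/- cells, so the Hbb-bt peaks then stood in fewer than 4 lists. Within 100 bp of summits, GATA hexamers were at 2 of 23 and 1 of 5 (all summits, 15% to 17.2%), TGAGTCA at 2 of 23 and 0 of 5 (2.75% to 3.22%), and CCACACCC at 1 of 23 and 0 of 5 (2.07% to 2.27%).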
